A study of Mus musculus with 12 samples.

Results

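The minichromosome maintenance (MCM) genes Mcm2, Mcm3, Mcm4, Mcm5, Mcm6 and Mcm7 were followed across the mouse cerebral hemisphere of E16.5 embryos. They were taken as every probe set whose platform gene symbol is one of these 6 names, 6 of the 8251 genes named on the array, which gave 8 of its 12488 probe sets: 1 each for Mcm2, Mcm4, Mcm6 and Mcm7, and 2 each for Mcm3 and Mcm5. The 12 arrays fall into 6 groups of 2, namely the medial, dorsal, ventral, rostral and occipital pieces and the whole hemisphere, all from mice with no stated strain, genotype or treatment. Each array of a pair came from its own dissection, and how many embryos went into a dissection is not given in the sources used here. The titles call one piece rostral that the description of the dissection calls lateral, and the titles were followed.

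The proteins of the 6 genes form the ring-shaped core of the helicase that unwinds DNA at replication forks. The ring is loaded onto origins of replication before S phase by the origin recognition complex together with Cdc6 and Cdt1, a step called licensing. The loaded ring starts to unwind DNA after the kinase Cdc7 with Dbf4 and the cyclin-dependent kinases act and Cdc45 and the GINS complex join it. In the embryonic cortex the dividing cells are radial glia at the ventricle and intermediate progenitors above them, whereas the neurons they produce leave the cell cycle. MCM genes are transcribed under E2F factors as cells prepare for S phase, and their products are widely used as markers of proliferating cells.

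The 6 genes are not neighbours in the genome. In RefSeq on GRCm38.p6, Mcm2 lies at chr6:88883474-88898780, Mcm3 at chr1:20802966-20820312, Mcm4 at chr16:15623897-15637400, Mcm5 at chr8:75109468-75128439, Mcm6 at chr1:128331575-128359705 and Mcm7 at chr5:138164583-138172111. Since these genes are known E2F targets, promoter windows of 300 bases from RefSeq (GRCm38.p6), 250 before to 50 after the transcription start, were searched on both strands for the letters TTTCCCGC, TTTCGCGC, TTTGCCGC and TTTGGCGC, core forms of the E2F site. The table held a window for Mcm2, Mcm3, Mcm5, Mcm6 and Mcm7, and 2 windows for Mcm7. At least 1 match was present for Mcm3, Mcm5, Mcm6 and Mcm7, and in 2.26% of all 32851 windows in the table. The matches are shown with their flanks, 5′ to 3′ on the gene's strand, with the matching letters in capitals.
Mcm3, chr1:20820275-20820304: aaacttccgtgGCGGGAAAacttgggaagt
Mcm3, chr1:20820263-20820285: acttgggaagtTTTGGCGCcaag
Mcm5, chr8:75109345-75109374: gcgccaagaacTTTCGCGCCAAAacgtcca
Mcm6, chr1:128359797-128359826: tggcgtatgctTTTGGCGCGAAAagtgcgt
Mcm6, chr1:128359734-128359763: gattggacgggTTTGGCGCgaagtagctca
Mcm7, chr5:138172030-138172059: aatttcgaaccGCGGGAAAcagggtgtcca
Mcm7, chr5:138171849-138171878: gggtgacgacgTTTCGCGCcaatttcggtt

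In Mcm5 and in the upstream match of Mcm6 a forward and a reverse match overlap, and each forms a run of 12 letters. Counted singly, the windows held 2 matches for Mcm3, 2 for Mcm5, 3 for Mcm6 and 2 for the first window of Mcm7, and windows with at least 2 made up 0.0974% of the table. The Mcm2 window and the second Mcm7 window held 0 matches, which says only that these letters are not in those 300 bases. The shorter letters CCAAT, the core of the site of the factor NF-Y, were present at least 1 time in every one of the 6 MCM windows and in 37.4% of all windows. A match is a description of letters and not evidence that a factor binds there.

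The value for each probe set is the average difference, the mean of the signals of perfectly matched minus mismatched probes, which can be negative. A floor of 693.5 was taken as the limit of measurement, and probe sets above 1387 on at least 2 arrays were tested, 5832 in all. Of the 8 MCM probe sets 7 passed this filter. The eighth, the single probe set of Mcm6, a ring subunit that pairs with Mcm2 and Mcm4, lay between -40.1 and 332 and was below the floor on all 12 arrays, so no level, order or difference of Mcm6 can be given. The tested probe sets of the other 5 genes lay above 1387 on 6 to 12 of the 12 arrays.

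**Figure D1:**
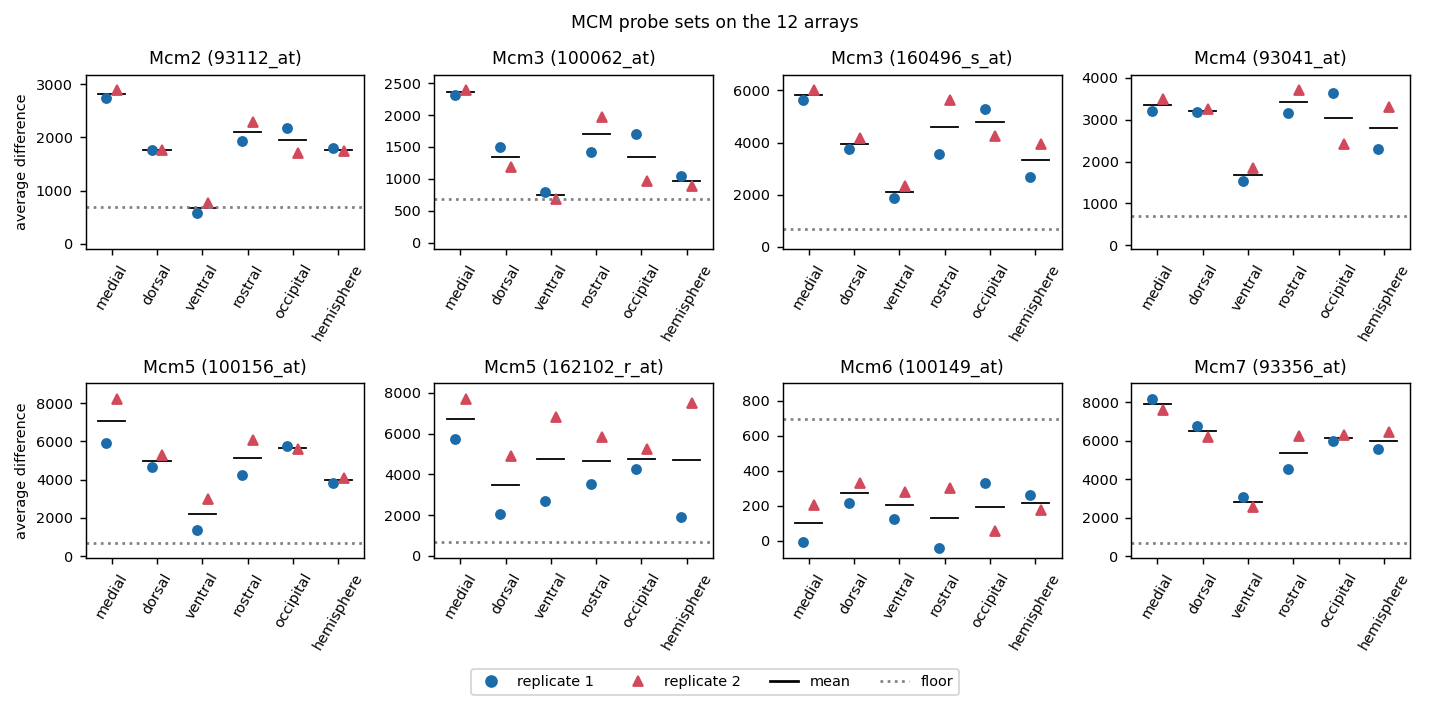
Average difference of the 8 MCM probe sets on each array, by group, with circles for replicate 1, triangles for replicate 2, a bar at the mean and a dotted line at the floor of 693.5. Both ventral arrays are the lowest of the 12 in 6 panels, and the panel of Mcm5 _r_at does not share that pattern. All values of Mcm6 lie under the floor, so no order of its groups can be read.

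The ventral piece had the lowest values of the MCM genes. In 6 of the 7 tested probe sets, covering Mcm2, Mcm3, Mcm4, Mcm5 and Mcm7, both ventral arrays lay below all 10 other arrays, and this held for 10.4% of all tested probe sets. By limma the same 6 probe sets fell in the ventral piece against the other 4 regions, by 1.94-fold to 2.88-fold, while 5.54% of all tested probe sets fell there. The second probe set of Mcm5 did not pass. In RNA from whole pieces of tissue, fewer dividing cells and less MCM RNA per cell cannot be told apart.

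Mcm2, the subunit whose tail carries parental histones at the fork and which is a target of the Cdc7 kinase, read 584 and 777 on the ventral arrays. The medial arrays read 2732 and 2889, the dorsal 1760 and 1757, the rostral 1928 and 2289, the occipital 2168 and 1715, and the hemisphere 1793 and 1747. The ventral values stand far apart from the rest, and 1 of them is under the floor. The ventral mean was 680.2 ± 136 (SD, n = 2) against 2155 ± 455 (SD, n = 8) in the other regions, a 2.88-fold fall (log2 -1.53 ± 0.14 SE, adjusted p = 0.000652). With the floor doubled, the difference was -0.61 in log2 (adjusted p = 0.0134), so the size of its fall depends on where the floor is set.

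Mcm7, a ring subunit that also binds the retinoblastoma protein, read 3089 and 2522 on the ventral arrays. It read 8157 and 7607 in the medial piece, 6773 and 6167 in the dorsal, 4511 and 6242 in the rostral, 5990 and 6282 in the occipital and 5548 and 6425 in the hemisphere. All 12 values are well above the floor, so the floor does not enter this fall. The ventral mean was 2806 ± 401 against 6466 ± 1101 (SD, n = 2 and 8), a 2.29-fold fall (log2 -1.19 ± 0.16 SE, adjusted p = 0.00301).

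Mcm5, which with Mcm2 forms the gate through which DNA enters the ring, has probe sets that disagree. On its first probe set, whose name ends in _at alone, it read 1354 and 2998 on the ventral arrays, 5891 and 8215 on the medial, 4682 and 5292 on the dorsal, 4238 and 6055 on the rostral, 5767 and 5587 on the occipital and 3843 and 4066 on the hemisphere arrays. The ventral arrays differ from each other by more than 2-fold and are still the lowest, with a 2.79-fold fall (log2 -1.48 ± 0.28 SE, adjusted p = 0.0124). On the second, which ends in _r_at, it read 2707 and 6825 on the ventral arrays, 5734 and 7696 on the medial, 2082 and 4881 on the dorsal, 3518 and 5835 on the rostral, 4273 and 5258 on the occipital and 1886 and 7494 on the hemisphere arrays. On that probe set replicate 2 was above replicate 1 in all 6 groups, by 0.30 to 1.99 in log2, and the groups overlap. Its ventral difference was -0.10 ± 0.54 (SE) in log2 (adjusted p = 0.939). The 95% interval, -1.33 to 1.13, spans 0 and overlaps that of the first probe set, -2.11 to -0.85. No test was made between the probe sets. The suffix r marks probe sets for which the array's design rules were relaxed.

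Mcm3, the subunit through which the ring is recruited to the loaded origin complex in budding yeast, fell on both of its probe sets. On the brighter, which ends in _s_at, it read 1855 and 2342 on the ventral arrays, 5644 and 6012 on the medial, 3757 and 4157 on the dorsal, 3559 and 5632 on the rostral, 5298 and 4264 on the occipital and 2686 and 3961 on the hemisphere arrays. The fall was 2.26-fold (log2 -1.17 ± 0.22 SE, adjusted p = 0.0114). The suffix s marks probe sets that can match several transcripts. The other probe set, ending in _at alone, is dim: it read 801 and 686 on the ventral arrays and 891 to 2394 on the other 10, passed the filter through 6 arrays, and fell by 1.12 ± 0.22 (SE) in log2 (adjusted p = 0.0162). Doubling the floor left its difference at -0.31 (adjusted p = 0.212).

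Mcm4, a main target of the Cdc7 kinase within the ring, had the smallest of the 6 falls. It read 1522 and 1834 on the ventral arrays, 3212 and 3503 on the medial, 3177 and 3257 on the dorsal, 3160 and 3710 on the rostral, 3639 and 2420 on the occipital and 2291 and 3294 on the hemisphere arrays. The non-ventral groups overlap along the whole order of their means. The ventral fall was 1.94-fold (log2 -0.95 ± 0.20 SE, adjusted p = 0.0179). The 95% intervals of the 6 falls ran from -1.40 to -0.51 for Mcm4 and from -1.84 to -1.22 for Mcm2, and those of the other 4 probe sets overlapped both.

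The number of arrays limits how firmly these falls stand. Without ventral replicate 1, Mcm2 and Mcm7 passed and the other 4 probe sets did not, with adjusted p of 0.113 and 0.158 for Mcm3, 0.199 for Mcm4 and 0.136 for Mcm5. Without ventral replicate 2, Mcm2, Mcm7 and Mcm5 passed, with adjusted p of 0.163 and 0.0593 for Mcm3 and 0.0885 for Mcm4. Over those fits the differences of the 4 probe sets stayed below 0, from -0.82 for Mcm4 to -2.05 for Mcm5. The count over all tested probe sets, 571, was 91 and 155 in the same fits. Against the dorsal, rostral and occipital pieces alone, a comparison added after the data were seen, the 6 falls were -0.93 to -1.39 and all 6 passed, with adjusted p up to 0.0492. Of all 5832 tested probe sets 357 passed in that comparison, in either direction.

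**Figure D2:**
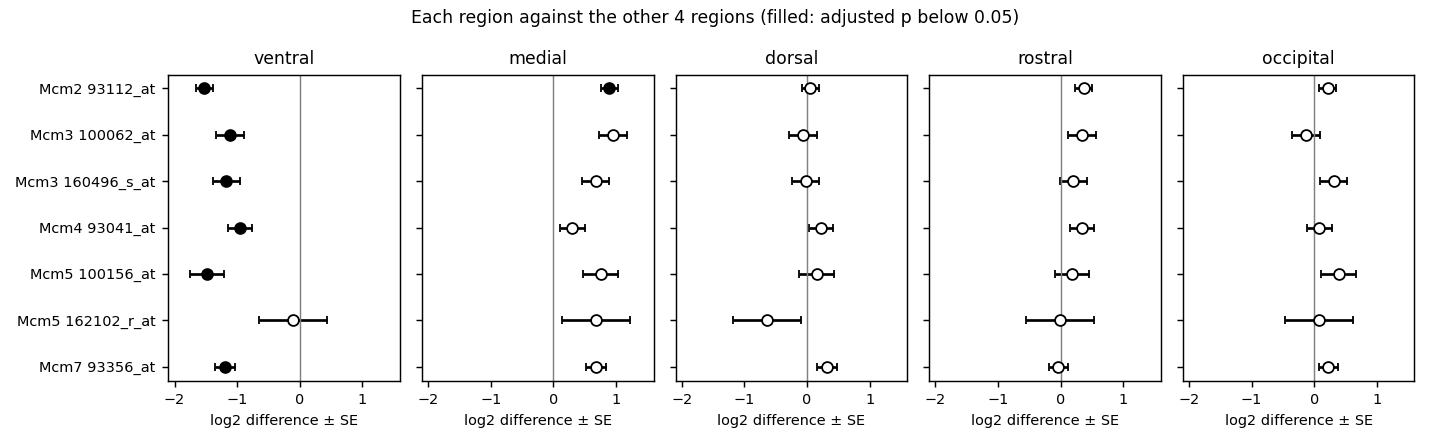
Log2 difference of each region against the mean of the other 4 regions for the 7 tested MCM probe sets, with bars of 1 SE and filled points where the limma adjusted p was below 0.05. The filled points are 6 ventral ones and the medial one of Mcm2, and the dorsal, rostral and occipital points lie between -0.64 and 0.39.

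The medial piece held the other end of the range. Both medial arrays were above all 10 others for Mcm2, Mcm7 and both Mcm3 probe sets, which held for 3.38% of all tested probe sets. By limma 1 of the 7 probe sets rose there against the other 4 regions, and 0.514% of all tested probe sets rose. Mcm2 was 2811 ± 111 (SD, n = 2) against 1622 ± 618 (SD, n = 8), higher by 1.86-fold, with a log2 difference of 0.89 ± 0.14 (SE, adjusted p = 0.0211). The other differences were 0.96 and 0.68 for Mcm3 _at and _s_at (adjusted p = 0.0824 and 0.182), 0.68 for Mcm7 (0.0815), 0.76 and 0.68 for Mcm5 _at and _r_at (0.249 and 0.674) and 0.30 for Mcm4 (0.576), and none of these passed. Mcm4 had its highest array in the rostral piece and its medial mean second.

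The medial comparison includes the low ventral arrays among its reference. Against the dorsal, rostral and occipital pieces alone, the medial difference of Mcm2 was 0.55 (adjusted p = 0.276), and those of the other 6 probe sets were 0.07 to 0.72, none of which passed. Of all 5832 tested probe sets 5 passed in that comparison, in either direction. The Mcm2 call was also lost when any one of the medial, dorsal or ventral arrays was left out. Its adjusted p was 0.21 and 0.257 without medial replicate 1 and 2, 0.0633 and 0.0653 without the dorsal arrays in turn, and 0.0587 and 0.0579 without the ventral ones.

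The medial and the ventral piece were the highest and the lowest region for every tested probe set except that of Mcm4, highest in the rostral piece, and Mcm5 _r_at, lowest in the dorsal. By limma 6 of the 7 probe sets were higher in the medial piece, and 6.05% of all tested probe sets were. The medial value was 3.83-fold the ventral one for Mcm2 (adjusted p = 0.000744), 3.45-fold for Mcm5 on its _at probe set (0.0137), 3.16-fold and 2.79-fold for Mcm3 (0.0077 and 0.0107), 2.82-fold for Mcm7 (0.00296) and 2.01-fold for Mcm4 (0.0318). The folds of Mcm2 and Mcm3 _at rest on the floor, with 1 ventral array of each at it, and with the floor doubled their log2 differences were 1.02 and 0.76 in place of 1.94 and 1.66. Mcm2 and Mcm7 passed whichever single array was left out. The count of 6 was 3 without medial replicate 2 or ventral replicate 1. Mcm3 _s_at was also lost without medial replicate 1 (adjusted p = 0.0574), Mcm3 _at without ventral replicate 2 (0.0567), and Mcm4 without any one of the medial, dorsal or ventral arrays (0.0571 to 0.188).

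The dorsal piece lay above the ventral piece for the same 6 probe sets with no overlap of arrays. Mcm2 (2.40-fold, adjusted p = 0.00543) and Mcm7 (2.32-fold, 0.0119) passed in limma, against 2.49% of all tested probe sets higher in the dorsal piece. With the floor doubled Mcm2 no longer passed (0.34 in log2, adjusted p = 0.255). Mcm3 (0.85 and 0.92 in log2), Mcm4 (0.95) and Mcm5 _at (1.31) did not pass, with adjusted p of 0.0667 to 0.14. The count of 2 was 0 without dorsal replicate 1, dorsal replicate 2 or ventral replicate 1. Without ventral replicate 2 Mcm2 passed (0.0339) and Mcm7 did not (0.0969). Over the 5 regions together limma's F-test passed Mcm2 (adjusted p = 0.00547) and Mcm7 (0.0222), while 3.26% of all tested probe sets passed. That count was 0 without either ventral array, and 1 without either medial or either dorsal array.

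None of the 7 probe sets passed in limma for the dorsal, rostral or occipital piece against the other 4 regions, or for the hemisphere against the mean of the 5 regions. Of all tested probe sets 0.274% passed for the dorsal piece and 0 for the other 3 comparisons. At an unadjusted p below 0.05 there was 1 MCM probe set for the rostral piece, Mcm2 (0.37 in log2), 1 for the hemisphere, Mcm3 _at (-0.52), and 0 for the dorsal and the occipital piece. In those comparisons 104, 277, 386 and 126 of the 5832 probe sets had such a p. In the hemisphere, which contains all the pieces, Mcm2 read between its ventral and its medial level, and so did Mcm3, Mcm4, Mcm7 and Mcm5 _at.

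The ends of the order of groups were shared by most of the genes, and the middle was not. The ventral piece ranked last on every tested probe set except Mcm5 _r_at, and the medial piece first on every one except that of Mcm4. The hemisphere came next to last on both Mcm3 probe sets, on Mcm4 and on Mcm5 _at, and above 1 other piece besides the ventral for Mcm2 and Mcm7. Between these ends the rostral, occipital and dorsal pieces changed places from gene to gene, and the arrays of neighbouring groups in that middle range overlapped for Mcm2, Mcm3, Mcm4 and Mcm7. The ventral piece was separated from its neighbour in the order on all 6 probe sets.

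Most pairs of MCM genes followed each other over the 12 arrays, and for the pairs of Mcm5 this depended on its probe set. With each gene given by its probe set of higher mean, the 10 pairs of the 5 measured genes had a median Pearson r of 0.821 on the log2 scale, with a range of 0.138 to 0.911. The 4 lowest values were those of Mcm5, given here by _r_at, whose mean of 4849 over the 12 arrays is barely above the 4832 of _at, while on the log2 scale _at is the higher: 0.221 with Mcm2, 0.491 with Mcm3, 0.308 with Mcm4 and 0.138 with Mcm7. With Mcm5 _at in its place, a choice made after the data were seen, the range was 0.80 to 0.925 and the median 0.894, and Mcm5 correlated at 0.903 with Mcm2 and at 0.925 with Mcm3. These are descriptions over arrays that come in pairs from 6 groups, and no test was made of them.

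**Figure D3:**
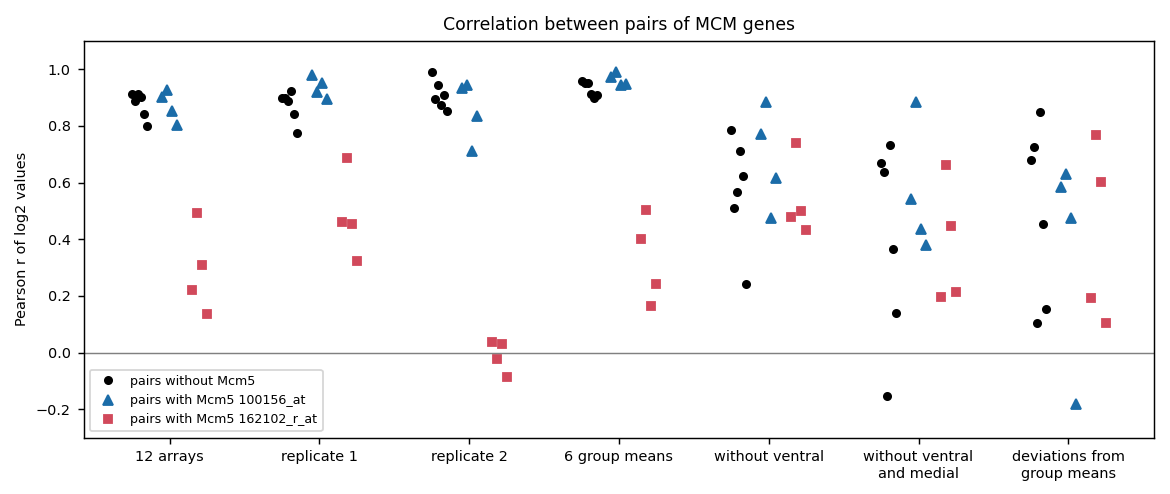
Pearson r of log2 values between pairs of MCM genes, over the 12 arrays and over subsets or summaries of them. Pairs without Mcm5 and pairs with Mcm5 _at lie at 0.80 or above over the 12 arrays, pairs with Mcm5 _r_at at 0.491 or below, and without the ventral arrays the other pairs spread downwards to 0.243 while the Mcm5 _r_at pairs lie at 0.434 to 0.739.

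With Mcm5 on its _at probe set, the choice made after the data were seen, the agreement was present within each replicate number. Over the 6 arrays numbered 1 the pairs, with Mcm5 on its _at probe set, had a median r of 0.899 and a range of 0.775 to 0.979. Over the 6 numbered 2 the median was 0.90 and the range 0.712 to 0.988. Mcm5 _r_at correlated with the other 4 genes at 0.324 to 0.687 in replicate 1 and at -0.087 to 0.039 in replicate 2. Over the 6 group means, with Mcm5 _at, the range was 0.897 to 0.988. With Mcm5 _r_at, its probe set of higher mean, the range over the group means was 0.165 to 0.958.

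Without the ventral arrays the 6 pairs that do not involve Mcm5 had lower r, 0.243 to 0.785, whereas the 4 pairs of Mcm5 _r_at had higher r, 0.434 to 0.739. The median r of the 10 pairs was then 0.619 with Mcm5 on its _at probe set (range 0.243 to 0.886) and 0.539 with Mcm5 _r_at. Without the ventral and the medial arrays, over the 8 arrays of the other groups, it was 0.488 with Mcm5 _at, from -0.153 for Mcm2 with Mcm7 to 0.883 for Mcm3 with Mcm5. Mcm2, Mcm3 and Mcm4 kept r of 0.638 to 0.734 with each other in those 8 arrays, whereas Mcm7 had 0.380 or less with any gene. The rank correlation over all 12 arrays, less driven by the 2 lowest, had a median of 0.545 on the higher probe sets. These include Mcm5 _r_at, whose pairs had rank correlations of 0.203 to 0.531, whereas the pairs without Mcm5 had 0.545 to 0.804.

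**Figure D4:**
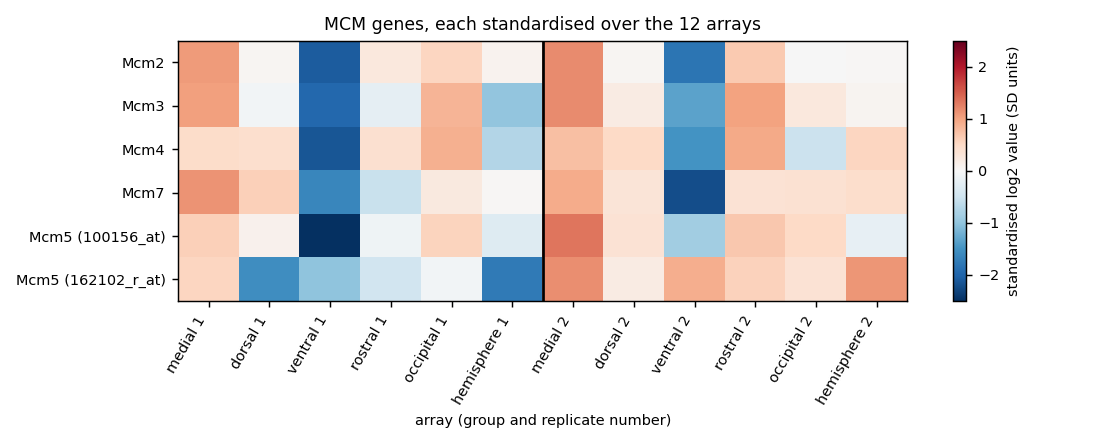
Log2 value of each measured MCM gene, standardised over the 12 arrays in SD units, with the arrays numbered 1 on the left and those numbered 2 on the right. The ventral columns are the darkest blue on both sides for every row except Mcm5 _r_at, and the medial columns are red in every row.

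The sign of the difference between the arrays of a group was shared by all 7 tested probe sets only in the rostral piece. In the rostral piece replicate 2 was above replicate 1 on all 7 tested probe sets, by 0.23 to 0.73 in log2, and in the occipital piece it was below on 5 of 7, by 0.05 to 0.81, with Mcm7 (0.07) and Mcm5 _r_at (0.30) the other way. In the ventral piece replicate 2 was above replicate 1 by 1.15 on Mcm5 _at and below it by 0.29 for Mcm7 and 0.21 on Mcm3 _at. Over all groups, deviations from the group means correlated at 0.848 between Mcm3 and Mcm4, 0.104 between Mcm2 and Mcm7 and -0.181 between Mcm5 _at and Mcm7. With 2 arrays a group the deviations of a pair are equal and opposite, so each of these r rests on 6 differences between replicates. The rostral minus occipital difference was negative on all 7 probe sets in replicate 1, from -0.17 for Mcm2 to -0.57 for Mcm3 _s_at. In replicate 2 it was positive on 6 of 7, from 0.12 for Mcm5 _at to 1.01 for Mcm3 _at, and -0.01 for Mcm7. Over all tested probe sets, rostral replicate 2 and occipital replicate 1 were each the closest array of another group to the other (r = 0.963), and 10 of the 12 arrays had their closest array of another group at the same number. Whether these arrays carry the right labels was not tested. Without the arrays labelled rostral or occipital the ventral count stayed at 6 of 7, while 569 of all 5832 tested probe sets passed in either direction. The medial count was 3 of 7, while 166 of all tested probe sets passed, against 74 in the main fit.

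Few of the listed licensing partners of the ring were measured, and none of them passed the threshold. Of 13 listed licensing partners, 9 were on the array and 4 passed the filter: the origin recognition subunits Orc4, Orc5 and Orc6 and the loading factor Cdt1. In the ventral piece Orc4 averaged 2241 against 2901 (log2 -0.35 ± 0.17 SE), Orc6 3169 against 3638 (-0.20 ± 0.15), Cdt1 3463 against 3968 (-0.17 ± 0.26) and Orc5 1881 against 1785 (0.09 ± 0.22). By limma 0 of the 4 passed (adjusted p = 0.261 to 0.86, and 0.311 to 0.838 in the medial piece). Their median was -0.19, against -0.02 over all 4562 tested genes. Whether they differ from the MCM genes was not tested. Orc1, Orc2, Cdc6, the Cdt1 inhibitor geminin (Gmnn) and Mcm10 were on the array and did not pass the filter.

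Genes of the replication fork were lower in the ventral piece, and a minority of them passed. Of 18 tested, 4 fell and 0 rose by limma, with a median of -0.52 and all 18 differences negative. Of all tested genes 5.74% fell and 4.34% rose. Rfc4, a subunit of the clamp loader, averaged 835 ± 125 against 2433 ± 694 (log2 -1.51, adjusted p = 0.00398), the polymerase delta subunit Pold1 759 ± 56.7 against 1815 ± 393 (-1.23, 0.00195) and the histone chaperone subunit Chaf1b 582 ± 47.0 against 1638 ± 332 (at least 2.32-fold lower, 0.00233; SD, n = 2 and 8), with both ventral arrays of Chaf1b under the floor. The sliding clamp Pcna averaged 7571 against 12723 (-0.74, adjusted p = 0.0581), just outside the threshold. In the medial piece, where 0.658% of all tested genes rose and 0.701% fell, Pold1 was the 1 of 18 that rose (0.85, adjusted p = 0.0364).

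Of 5 tested genes of deoxynucleotide supply 3 fell in the ventral piece and 0 rose, with a median of -0.88. The ribonucleotide reductase subunit Rrm1 averaged 1046 ± 27.1 against 3793 ± 634 (-1.84 ± 0.15 SE, adjusted p = 0.000508), its partner Rrm2 1394 ± 5.4 against 3411 ± 580 (-1.27, 0.00316), and deoxycytidine kinase (Dck) 5608 ± 522 against 9423 ± 1666 (-0.73, 0.0349). Rrm1 was the 1 of 5 that rose in the medial piece (0.84, adjusted p = 0.0375). The 14 tested kinases and regulators of S phase entry split: 4 fell, 1 rose, and the median was -0.57. Cyclin A2 (Ccna2), which drives S phase and the entry into mitosis, averaged 1738 ± 656 against 5265 ± 1040 (-1.63, adjusted p = 0.00349), and the G1 kinase Cdk4 16853 ± 395 against 30162 ± 4785 (-0.82, 0.0109). The cell cycle inhibitor Cdkn1a rose, to 2923 ± 33.3 against 974 ± 473 (1.62, adjusted p = 0.00428). The 974 of the other regions is below the filter level of 1387 and not far above the floor of 693.5. The size of this rise may therefore depend on the floor.

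Mitotic genes fell in the largest number. Of 19 tested, 14 fell and 0 rose in the ventral piece, with a median of -1.15, and 5 rose and 0 fell in the medial piece, with a median of 0.72, led by Cdk1 (1.31), Hmgb2 (0.99) and Ckap2 (0.97). The spindle protein Ckap2 averaged 442 ± 301 against 2881 ± 584 (at least 4.08-fold lower, adjusted p = 0.000652), Cks2, a subunit of cyclin-dependent kinases, 1065 ± 287 against 4412 ± 1594 (4-fold lower, adjusted p = 0.0105), and the mitotic kinase Cdk1 1136 ± 87.0 against 4454 ± 1531 (-1.91, adjusted p = 0.000502). Both ventral arrays of Ckap2 were under the floor, so its fall is a bound set by the floor. No test was made between the mitotic list and the MCM genes.

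**Figure D5:**
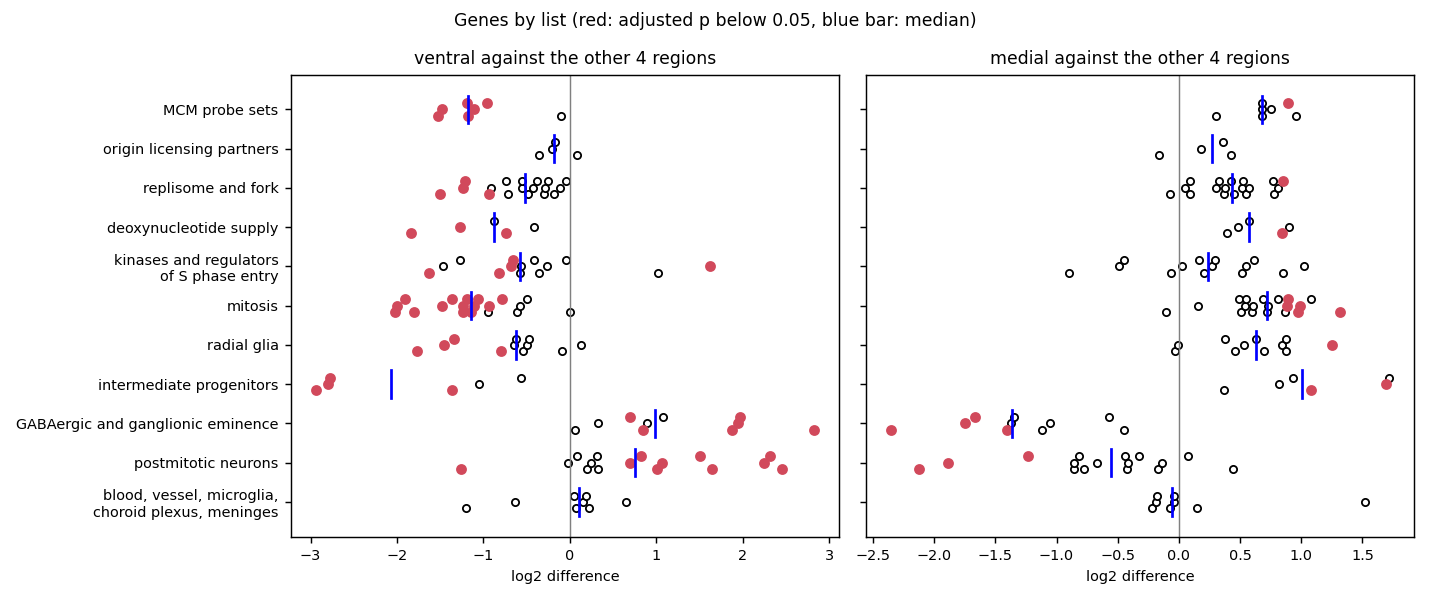
Log2 difference of the ventral piece (left) and the medial piece (right) against the other 4 regions for the 7 tested MCM probe sets and for the tested genes of each list, with red points where the limma adjusted p was below 0.05 and a blue bar at the median. The medians of the mitosis and intermediate progenitor lists, -1.15 and -2.07 in the ventral piece, lie right of 0 in the medial piece, and the GABAergic median is 0.98 in the ventral piece and -1.36 in the medial.

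Several marker lists of cell types differed between the pieces in which the MCM genes differed. Of 11 tested radial glia genes 4 fell in the ventral piece and 0 rose (median -0.63), and their summed level was 93150 to 97270 on the ventral arrays against 93419 to 125591 in the other regions. The lowest of these other sums, 93419 and 93789, are those of the dorsal arrays. In the dorsal piece 0 of the radial glia genes passed, and their median was -0.17. Of 6 intermediate progenitor genes 4 fell and 0 rose (median -2.07), with a summed level of 8590 to 12144 against 24518 to 53693. Of 10 GABAergic genes 6 rose and 0 fell (median 0.98), with 120012 to 134741 against 22150 to 80856, and of 16 genes of postmitotic neurons 9 rose and 1 fell (median 0.76), with 369456 to 376836 against 223610 to 329396. The ventral arrays do not overlap the other regions in the last 3 sums. In the medial piece 1 radial glia and 2 intermediate progenitor genes rose, while 4 GABAergic and 3 neuronal genes fell. The GABAergic sum there was 22150 to 27510, against 49644 to 134741 in the other regions, and the intermediate progenitor sum 41820 to 53693, against 8590 to 37774. Of 8 tested blood, vessel, microglia, choroid plexus and meninges genes 0 passed in either piece. The part of these cell types in the MCM differences was not tested.

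Actin probe sets near the 5' and 3' ends of the transcript show how far cDNA synthesis ran, and their ratio was 0.665 on ventral replicate 1, against 0.706 to 0.831 on the arrays of the other regions with that number, and 0.856 on ventral replicate 2, against 0.840 to 0.887. The same ratio for Gapdh was 0.982 on ventral replicate 1, against 1.05 to 1.16, and 1.09 on ventral replicate 2, against 1.00 to 1.14. The part of RNA quality in the MCM differences was not tested. In log2 the ventral differences in replicates 1 and 2 were -1.61 and -1.44 for Mcm2, and -1.27 and -1.08 for Mcm3 _s_at. They were -1.11 and -0.79 for Mcm4 and -1.91 and -1.05 for Mcm5 _at, so all of these falls were larger in replicate 1. The falls of Mcm3 _at (-1.09 and -1.14) and Mcm7 (-1.01 and -1.38) were larger in replicate 2.

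The genes whose pattern over the 12 arrays was most like the mean of the 5 standardised MCM genes included several of cell division. Of 4557 other genes the nearest were the mitotic kinesin Kif2c (r = 0.985), the RNA export factor Nxt1 (0.976), Cdca8, a subunit of the chromosomal passenger complex (0.953), Ccna2 (0.947), Uhrf1, which keeps DNA methylation through replication (0.947), the splicing factor Prpf31 (0.945), Rrm1 (0.943) and the mitochondrial isocitrate dehydrogenase Idh2 (0.940). The median over these genes was 0.046, and 3.53% had an r above 0.8. Kif2c read 610 and 817 on the ventral arrays against 1938 and 2258 on the medial ones, and kept r of 0.956 without the ventral arrays, where the range over the 8 genes was 0.814 to 0.956. Idh2 read 1924 and 2055 on the ventral arrays against 6424 and 7568 on the medial ones. Mcm3ap, which shares a name with Mcm3 and is no ring subunit, had an r of 0.026 and a ventral difference of -0.08 (adjusted p = 0.859). With Mcm5 _at in the mean, the r of these 8 genes was 0.948 to 0.982. The likeness was ranked with these data and is not a test of a relation.

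Against the mean of the other 4 genes, with Mcm5 on its _r_at probe set, r was 0.968 for Mcm3, 0.886 for Mcm2, 0.872 for Mcm4, 0.796 for Mcm7 and 0.304 for Mcm5. With Mcm5 on its _at probe set, a comparison added after the data were seen, it was 0.957 for Mcm2, 0.946 for Mcm3, 0.914 for Mcm5, 0.901 for Mcm4 and 0.873 for Mcm7. The order of the genes thus depends on the Mcm5 probe set.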

How the data were processed

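The deposited intensities are average differences, 1 per probe set and array, of which the authors' protocol text names the quantity and breaks off (per the labels), so the software and its version are not given in the sources used here. By the labels, poly(A)+ RNA was copied into labelled cRNA and each array was scanned 2 times. After trimming 2% at each end, array means were 2501.6 to 2501.9, so the values had been scaled per array before deposit, and no further scaling was applied.

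Before log2, values were raised to at least 693.5, a floor computed as the square root of the mean squared negative value. The 66 control probe sets were left out, and 5832 probe sets above 1387 on at least 2 arrays were tested, 4562 genes by the platform annotation. limma 3.58.1 in R 4.3.3 was fitted once with a mean for each of 6 groups (6 residual and 2.86 prior degrees of freedom). Two-sided p-values were adjusted within each comparison over all tested probe sets (Benjamini-Hochberg, threshold 0.05), and the code was tested on simulated data. Beside a region, n = 8 counts the arrays of the other 4 regions. Where 1 probe set stands for a gene it is the one with the highest mean among those that passed. The genes named from each list are those that passed with the largest ventral differences, up to 3 a list, and at most 3 in the medial piece. The 8 genes of most similar pattern were taken by r. Pcna, the licensing partners and Mcm3ap were named after their values were seen. The MCM genes and the lists were chosen with earlier results of these data known. No replicate block was used in the main fit, since the labels do not say that same-numbered arrays of different groups share a dissection. The deviations of same-numbered arrays did correlate above 0.1 in 14 of 15 pairs of groups (median 0.411). The exception was rostral with occipital (-0.06). Counts with replicate number as a block are given below. The labels say that dissections were independent and not how many animals each held, so p-values measure the spread between these arrays. Their number limits the precision of every value.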

Additional observations from a re-analysis of the deposited data

How the results depend on the processing

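No MCM difference that passed changed its sign under any setting tried. The calls of Mcm7 in the ventral piece and between the medial and ventral pieces held under every one, as did those of Mcm2 where it was tested. With replicate number as a replicate block, a pairing that the arrays hint at and the labels do not state (10 of 12 arrays had their closest array of another group at their own number), the counts of all probe sets were 256 for medial, 45 for dorsal and 938 for ventral against the other 4 regions, 442 over the 5 regions, 1063 for medial against ventral and 587 for dorsal against ventral. The MCM counts with the block were 3 for medial, 5 over the regions and 5 for dorsal against ventral. Without the arrays labelled rostral or occipital, all-probe-set counts were 166 for medial, 28 for dorsal and 383 over the regions, and MCM counts 3 for medial and 4 over the regions. Without the filter, which tests more probe sets, the MCM count was 3 for ventral and 1 over the regions, and all-probe-set counts were 124 over the regions, 188 for dorsal against ventral, 3 for rostral, 4 for occipital and 7 for the hemisphere. The stricter filter left Mcm2 untested, which gave MCM counts of 0 for medial, 1 over the regions and 1 for dorsal against ventral. The doubled floor gave an MCM count of 1 for dorsal against ventral, losing Mcm2, and 1 probe set for the hemisphere, and the halved floor and the arcsinh scale each gave 7 for dorsal. The cause of the other changes was not tested.

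Leaving out 1 array at a time gave MCM counts of 0 to 2 for medial, 2 to 6 for ventral, 0 to 3 over the regions, 3 to 6 for medial against ventral and 0 to 3 for dorsal against ventral. Counts of all probe sets ran from 0 to 124 for medial, 2 to 16 for dorsal, 91 to 653 for ventral, 11 to 234 over the regions, 215 to 776 for medial against ventral, 49 to 347 for dorsal against ventral and 0 to 1 for the hemisphere.

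The median correlation of MCM pairs, 0.821, was 0.757 with the doubled floor, 0.545 as Spearman's rho, 0.863 on replicate 2 arrays alone, 0.539 without the ventral arrays, 0.891 without the arrays labelled rostral or occipital, 0.902 over group means and 0.528 over deviations from them. It was 0.746 to 0.856 with 1 array left out. Of the choices made after seeing the data, the other Mcm5 probe set gave 0.894, leaving out Mcm5 0.894, and that probe set without the ventral arrays 0.619, or 0.488 without the medial arrays as well.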
